A study of Mus musculus with 9 samples.

Results

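The 50 genes described here encode the contractile apparatus of skeletal muscle and the machinery that releases and recaptures its calcium, together with 3 transcription factors of the muscle lineage. They were chosen by gene symbol, with 1 array feature per symbol (that of the highest mean over all arrays), and 50 of 50 names were found among the 19505 genes of the deposited table. In striated muscle, myosin thick filaments pull on actin thin filaments within the sarcomere, and troponin and tropomyosin make this pull depend on calcium released from the sarcoplasmic reticulum. Fast, slow and developmental fibres use different isoforms of many of these proteins. Mouse back skin carries a thin sheet of striated muscle, the panniculus carnosus, beneath the dermis and fat, and it is known as a mostly fast muscle.

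Skin from the depilated back of the mouse strain C57BL/6J, at an age of 8 weeks, was profiled on Affymetrix arrays. All 9 samples received 5% imiquimod cream daily for 7 days; imiquimod is a Toll-like receptor agonist that induces psoriasis-like dermatitis. In the stretch group (5 samples, labelled IMQ+F) a plastic traction device glued to the skin had been elongated by 10 mm, and the no-stretch group (4 samples, labelled IMQ+N) had no traction. The labels do not say whether non-stretched skin carried the glued device, nor whether each sample was a separate mouse, so p-values measure only the spread between these samples. No skin without imiquimod was analysed here.

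The markers fixed for skeletal muscle were present at high levels on all arrays: Acta1, Ckm, Myh4, Tnnt3 and Mylpf lay at percentiles 99.9, 94.1, 99.5, 99.2 and 99.5 of all genes by mean log2 value. Percentiles mix probes of different brightness and serve only as a rough guide. The 8 heart genes ranged widely. Nppa lay at percentile 15.2, Myh6 at 20.4, Myl7 at 24.4, Ryr2 at 27.9, Tnni3 at 40.2 and Nkx2-5 at 46.6. Cardiac troponin T (Tnnt2) lay at 58.2 and the atrial and embryonic light chain Myl4 at 87.0, and developing skeletal muscle can also express both. None of the 8 passed the test described below, and their mean, relative to non-stretched skin, ranged from -0.53 to 0.29 with stretch and from -0.12 to 0.13 without. The satellite cell markers Pax7, Myf5 and Cdh15 lay between percentiles 11.6 (Myf5) and 27.1 (Cdh15). The smooth muscle markers Acta2, Tagln, Myh11, Actg2 and Cnn1 lay at 90.2, 69.6, 58.2, 39.7 and 35.9. Des, Tpm1, Tpm2 and Atp2a2 among the 50 genes are also expressed by smooth muscle or other cells. The mean level of the 9 smooth muscle genes, relative to the no-stretch mean, ranged from -0.28 to -0.14 with stretch and from -0.18 to 0.15 without, and none of them passed that test. Synpo2 in this list varied with the 50 genes (Pearson r of 0.87 with their mean over the 9 arrays). It stood at -2.14 in stretch replicate 1, the array with the list mean of -0.28.

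None of the 50 genes passed the test between stretched and non-stretched skin. The test was limma's moderated test on log2 values with Benjamini-Hochberg adjustment over 19505 genes at 0.05. It called 0.246% of all genes (0.0820% higher and 0.164% lower with stretch) and 0 of the 50, whose smallest adjusted p was 0.11 (Myoz2). At an unadjusted p under 0.05 there were 9 of the 50 (18%). Of these 7 were higher and 2 lower with stretch, against 6.92% of all genes higher and 6.07% lower. The median log2 change, stretch minus no stretch, was 0.06 over the 50 genes and -0.0034 over all genes, and 29 of the 50 changes were positive. For 0 of the 50 did the groups separate on every array, against 4.54% of all genes (2.38% higher and 2.15% lower).

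The array of stretch replicate 1 had far less signal from these genes than the other 4 stretched arrays. It had the lowest of all 9 values for 32 of the 50 genes, and for 36 it lay at least 1 log2 unit under the mean of the other stretched arrays. The median of that gap was -1.48 over the 50 genes and -0.02 over all genes. Averaged over the 50 genes, stretch replicate 1 stood at -1.07 relative to non-stretched skin, and the other stretched arrays at 0.17, 0.62, 0.22 and 0.46. The 4 non-stretched arrays stood at -0.20, 0.26, -0.20 and 0.13. In a bulk sample, less muscle tissue and less of these RNAs per muscle fibre cannot be told apart. Stretch replicate 1 and no-stretch replicate 3 also had the lowest array weights of the 9 arrays (0.55 and 0.58), so results are given with all arrays and, where it matters, without stretch replicate 1.

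**Figure D1:**
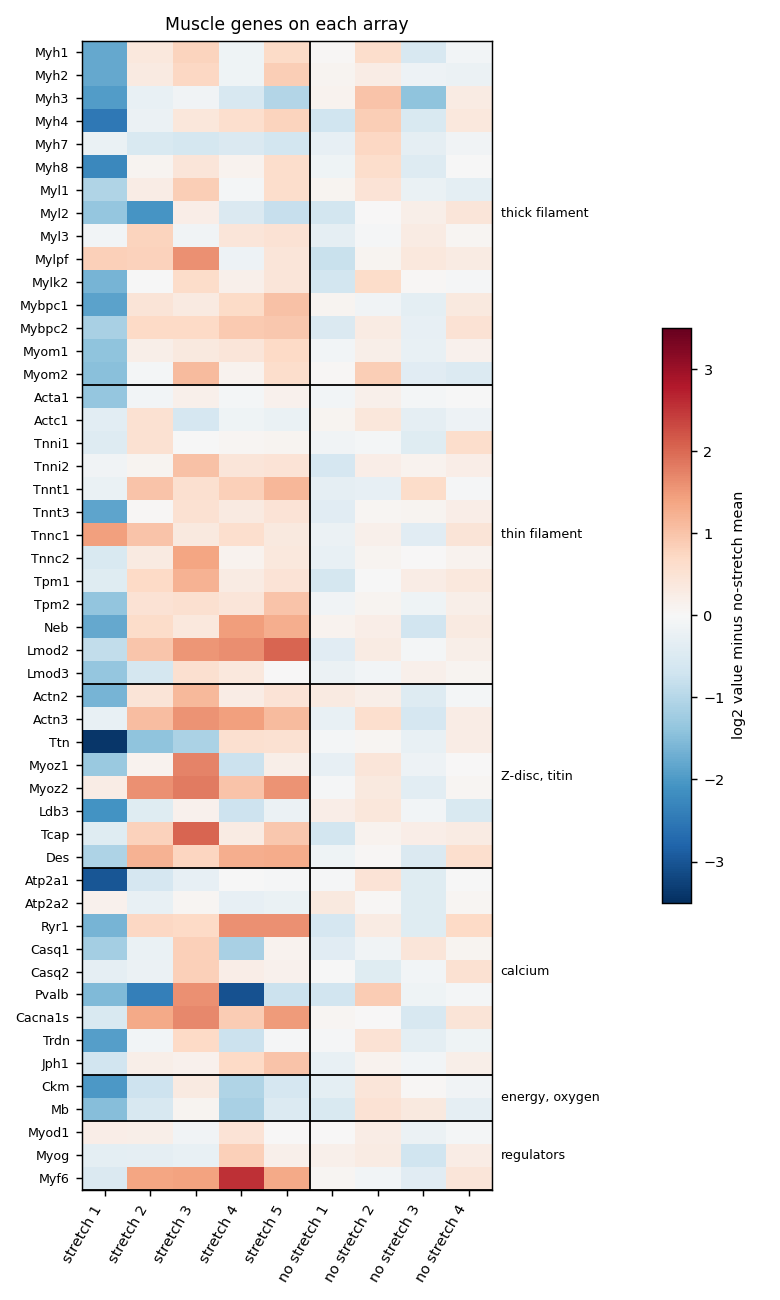
Log2 value of each of the 50 muscle genes (rows, grouped by role) on each of the 9 arrays (columns), minus the gene's mean over the 4 no-stretch arrays; red is higher and blue lower. Stretch replicate 1 is blue in most rows and has the lowest of all 9 values for 32 of the 50 genes, while Tnnc1 and Mylpf stand above the no-stretch mean there.

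Without stretch replicate 1 the median change of the 50 genes was 0.40, against -4e-05 over all genes, and 37 of the 50 were positive. The test then called 3 of the 50, all higher: Myoz2, Lmod2 and Myf6. It called 0.364% of all genes in that fit, 0.169% as higher and 0.195% as lower. The groups then separated for 11 of the 50 genes (22%), against 7.16% of all genes (3.91% higher and 3.26% lower). In 10 of these the stretched arrays were higher (Mybpc2, Tpm2, Neb, Lmod2, Actn3, Myoz2, Tcap, Des, Cacna1s and Myf6), and in 1, Myh7, they were lower. Stretch replicate 1 was set apart by its low values for these same genes, so leaving it out raises the stretched mean of most of them. The shares of all genes, not chosen in that way, are therefore no fair background for these counts. Leaving out no-stretch replicate 3 as well gave a median change of 0.33 and no call among the 50 genes. Leaving out no-stretch replicate 3 alone gave a median change of -0.04 and also no call among them. For Myoz2, Lmod2 and Myf6 the limma adjusted p was 0.29, 0.58 and 0.53 in that fit. With both arrays left out it was 0.064, 0.086 and 0.12.

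The promoters of the 4 skeletal myosin heavy chain genes Myh1, Myh2, Myh4 and Myh8 are shown because each of these genes, all on chromosome 11, had its lowest value in stretch replicate 1, as did most of the 50 genes. Their upstream windows share a run of 14 bases, in capitals below, which was the longest run common to Myh2, Myh4 and Myh8 and was looked for after the values were seen. It occurs, on either strand, in the 250 bases before the start of 4 genes of 27025 (0.0148%), which are these same 4. These genes are close paralogs and the run was taken from their own windows, so this share is no background for it. The slow gene Myh7 and the embryonic gene Myh3 lack it in that window. Myh3 is also on chromosome 11 and also had its lowest value in stretch replicate 1, so not all such genes hold the run. The windows are from RefSeq on GRCm38.p6, 5′ to 3′ on the plus strand, at chr11:67199912-67200001 (Myh1), chr11:67170872-67170961 (Myh2), chr11:67237624-67237713 (Myh4) and chr11:67277040-67277123 (Myh8). The run begins at positions -160, -125, -158 and -54 from the annotated start, in the same order.
Myh1: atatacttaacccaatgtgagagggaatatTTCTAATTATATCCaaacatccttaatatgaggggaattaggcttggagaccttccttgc
Myh2: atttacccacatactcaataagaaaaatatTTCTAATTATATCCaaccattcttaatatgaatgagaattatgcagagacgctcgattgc
Myh4: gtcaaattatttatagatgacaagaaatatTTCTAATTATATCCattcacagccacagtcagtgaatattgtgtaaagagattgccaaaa
Myh8: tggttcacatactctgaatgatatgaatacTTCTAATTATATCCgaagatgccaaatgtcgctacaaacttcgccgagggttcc

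No motor protein of the thick filament passed the test. Myosin heavy chains carry the ATPase that sets a fibre's speed: Myh2, Myh1 and Myh4 encode the fast adult forms 2A, 2X and 2B, Myh7 the slow form, and Myh3 and Myh8 the embryonic and perinatal forms. Myh2 was at log2 15.25, 17.35, 17.76, 16.90 and 17.90 in stretch replicates 1 to 5 and at 17.15, 17.31, 16.87 and 16.83 in no-stretch replicates 1 to 4. Myh4 was at 14.15, 16.45, 17.05, 17.24 and 17.43 with stretch and at 15.96, 17.50, 16.12 and 17.00 without. For both genes stretch replicate 1 was the lowest array, and the other 4 stretched arrays overlapped the non-stretched ones.

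The log2 change was -0.01 for Myh2 (95% confidence interval -0.99 to 0.97), -0.18 for Myh4 (-1.50 to 1.13) and -0.03 for Myh1 (-1.05 to 0.98). Without stretch replicate 1 these were 0.44, 0.40 and 0.41, with limma adjusted p of 0.47, 0.67 and 0.57. The intervals with all arrays thus span both signs by about 1 log2 unit or more. The perinatal gene Myh8, low in the same array, was at 15.74, 18.08, 18.42, 18.11 and 18.61 with stretch and at 17.84, 18.62, 17.54 and 17.97 without. Its change was -0.20 (-1.30 to 0.90), and 0.31 without stretch replicate 1. These heavy chains are close paralogs, and how far the array's probes separate them is not given in the sources used here.

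The embryonic gene Myh3 was also lowest in stretch replicate 1. It was at 7.70, 9.40, 9.53, 9.10 and 8.64 with stretch and at 9.78, 10.68, 8.25 and 9.96 without, a change of -0.79 (-1.82 to 0.24; limma adjusted p = 0.51). Here no-stretch replicate 3 was also low, and the 3 other non-stretched arrays were above all 5 stretched ones. Without it the change was -1.26 (adjusted p = 0.34). The slow gene Myh7 lay at percentile 40.8 of all genes, at 5.14, 4.84, 4.75, 4.85 and 4.72 with stretch and at 5.07, 6.10, 5.05 and 5.24 without. Its change was -0.51 with a standard error of 0.22 (adjusted p = 0.37), and its highest value was in no-stretch replicate 2. Stretch replicate 1, low for the fast genes, was the highest stretched array for Myh7.

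**Figure D2:**
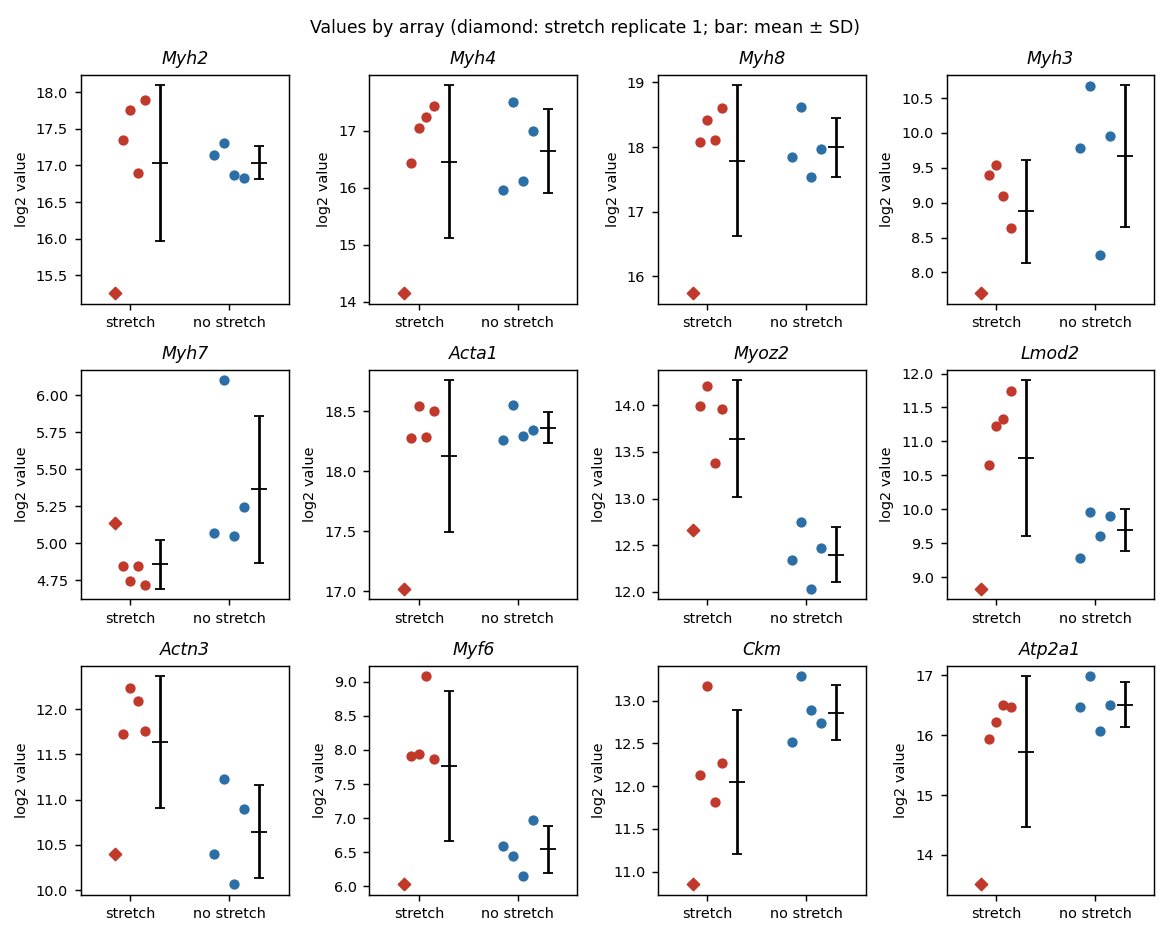
Log2 values of 12 muscle genes on each array (red, 5 stretched; blue, 4 non-stretched; diamond, stretch replicate 1), with the mean and SD of each group as black bars. Each panel has its own vertical range; for Myoz2 the stretched arrays other than the diamond sit between 13.38 and 14.20, above the non-stretched range of 12.03 to 12.74.

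Among the myosin light chains, which bind the lever arm of the motor, the fast form Myl1 had a change of 0.12 and the ventricular and slow form Myl3 of 0.30. Mylpf, the regulatory light chain of fast fibres, had the largest positive change of the thick filament group. It was at 17.03, 17.01, 17.80, 16.03 and 16.61 with stretch and at 15.42, 16.30, 16.56 and 16.50 without, a change of 0.70 (-0.04 to 1.44; adjusted p = 0.41). Mylpf was not low in stretch replicate 1, where Myh1, Myh2, Myh4 and Myh8 were. The slow regulatory light chain Myl2 had the most negative change of the group, -0.90 (-1.76 to -0.03; adjusted p = 0.37). It was at 6.65, 5.95, 8.23, 7.51 and 7.18 with stretch and at 7.37, 8.01, 8.21 and 8.43 without, so that stretch replicates 3 and 4 lay within the non-stretched range and the other stretched arrays under it.

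In the rest of the thick filament the changes were -0.07 for Mylk2, the kinase of fast light chains, 0.12 and 0.43 for the myosin-binding proteins Mybpc1 and Mybpc2, and 0.05 and 0.06 for the M-band proteins Myom1 and Myom2. Without stretch replicate 1 they lay between 0.32 (Mylk2) and 0.82 (Mybpc2), and Mybpc2 then separated the groups (adjusted p = 0.18). Of the 15 thick filament genes 7 were positive, 8 negative and 0 passed the test.

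Of the 13 thin filament genes, 9 were positive, 4 negative and 0 passed. Acta1, the actin of adult skeletal muscle, was at 17.02, 18.28, 18.54, 18.28 and 18.51 with stretch and at 18.26, 18.55, 18.30 and 18.34 without. Apart from stretch replicate 1 its 8 arrays spanned only 18.26 to 18.55, and the change without that array was 0.04. Actc1, the actin of the heart and of developing muscle, had a change of -0.16. Lmod2, a leiomodin that lengthens thin filaments and is best known from heart, had the largest positive change of this group. It was at 8.83, 10.65, 11.22, 11.32 and 11.74 with stretch and at 9.28, 9.97, 9.61 and 9.90 without. All stretched arrays but stretch replicate 1 were above all non-stretched ones. The change was 1.06 with a standard error of 0.48 (2.09-fold; adjusted p = 0.38), and without stretch replicate 1 it was 1.54 (2.92-fold; adjusted p = 0.033). Lmod3, the leiomodin of skeletal muscle, had a change of -0.21, and of 0.07 without stretch replicate 1.

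Troponin, the calcium switch on the thin filament, was represented by 6 genes. The slow and cardiac calcium-binding subunit Tnnc1 was at 8.90, 8.48, 7.81, 8.08 and 7.81 with stretch and at 7.27, 7.65, 7.08 and 7.92 without. Its change was 0.74 with a standard error of 0.26 (adjusted p = 0.25), and stretch replicate 1 was its highest array, the reverse of most of the 50 genes. The groups overlapped through no-stretch replicate 4. The slow tropomyosin-binding subunit Tnnt1 had a change of 0.67, and the slow inhibitory subunit Tnni1 of 0.05. Among the fast subunits the changes were 0.38 for Tnni2, 0.33 for Tnnc2 and -0.09 for Tnnt3, which became 0.34 without stretch replicate 1. The tropomyosins Tpm1 and Tpm2 had changes of 0.45 and 0.23, and nebulin (Neb), which spans the thin filament, of 0.39. For Tpm2 and Neb the 4 other stretched arrays were all above the non-stretched arrays, with changes of 0.62 and 0.93 and adjusted p of 0.19 and 0.22.

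At the Z-disc, which anchors thin filaments and senses strain, lay the gene with the smallest p of the 50. Myoz2, calsarcin-1, a calcineurin-binding Z-disc protein of slow and cardiac muscle, was at 12.66, 13.99, 14.20, 13.38 and 13.96 with stretch and at 12.34, 12.74, 12.03 and 12.46 without. Only stretch replicate 1 fell within the non-stretched range, under no-stretch replicate 2. The change was 1.25 with a standard error of 0.30 (2.37-fold; adjusted p = 0.11). It passed without stretch replicate 1 (change 1.49, 2.81-fold, adjusted p = 0.026) and with array weights (1.28, adjusted p = 0.039), but not in the other fits. The weights were estimated from these same data and were lowest for stretch replicate 1 (0.55). The weighted fit is therefore not separate from the omission of that array. With array weights 0.805% of all genes were called, 0.359% higher and 0.446% lower. Myoz1, the paralog of fast fibres, had a change of 0.004.

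The 250 bases before the annotated start of Myoz2 are shown because it is the member with the smallest p. The window, from RefSeq on GRCm38.p6, is chr3:123034988-123035237 on the minus strand, 5′ to 3′, with a match to the MEF2 site and a CAGCTG E-box in capitals.
Myoz2: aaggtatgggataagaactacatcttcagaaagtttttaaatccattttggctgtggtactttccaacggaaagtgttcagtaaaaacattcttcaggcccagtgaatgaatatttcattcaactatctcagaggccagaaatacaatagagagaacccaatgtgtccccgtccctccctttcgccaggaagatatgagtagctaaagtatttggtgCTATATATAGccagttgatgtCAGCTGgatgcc

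Of the 50 genes 36 had a RefSeq promoter entry, and the first entry of each gene was searched over 250 bases. The E-box CAGCTG, bound by myogenic factors of the MyoD family, was in 13 of the 36 (36.1%) and in 12.8% of 27025 genes. The MEF2 site was in 7 (19.4%) and in 3.01% of all genes, and the CArG box, bound by serum response factor, in 6 (16.7%) and 1.4%. The MCAT element CATTCC was in 10 (27.8%) and in 12.6%. These were searched on both strands, and TATAAA on the gene's strand was in 5 (13.9%) and in 8.12%. The MEF2 and CArG motifs are AT-rich, as is TATAAA, so their matches can overlap. A match is a description of letters and does not show that a factor binds.

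Actn3, the actinin of fast fibres that crosslinks actin at the Z-disc, was at 10.39, 11.72, 12.23, 12.09 and 11.76 with stretch and at 10.40, 11.22, 10.06 and 10.90 without. Its change was 0.99 with a standard error of 0.36 (adjusted p = 0.27), and 1.30 (adjusted p = 0.065) without stretch replicate 1, where the groups separated. Actn2, the actinin of all fibre types, had a change of 0.14. Changes of 0.73 for Tcap, the titin cap, and 0.69 for Des, the intermediate filament desmin, became 1.02 and 1.14 without stretch replicate 1, and both then separated the groups. Ldb3, a PDZ-LIM protein of the Z-disc, had a negative change of -0.66.

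Titin (Ttn), the elastic filament that spans from Z-disc to M-band, varied most among the stretched arrays of this group. It was at 12.30, 14.30, 14.60, 16.27 and 16.25 with stretch and at 15.63, 15.78, 15.45 and 15.95 without. Stretch replicates 1, 2 and 3 were under all non-stretched arrays and stretch replicates 4 and 5 above them. The change of -0.96 (-2.41 to 0.49; adjusted p = 0.57) thus averages stretched samples that lay on both sides. The SD was 1.64 with stretch (n = 5) and 0.21 without (n = 4). Of the 8 genes of the Z-disc group, 6 were positive, 2 negative and 0 passed.

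**Figure D3:**
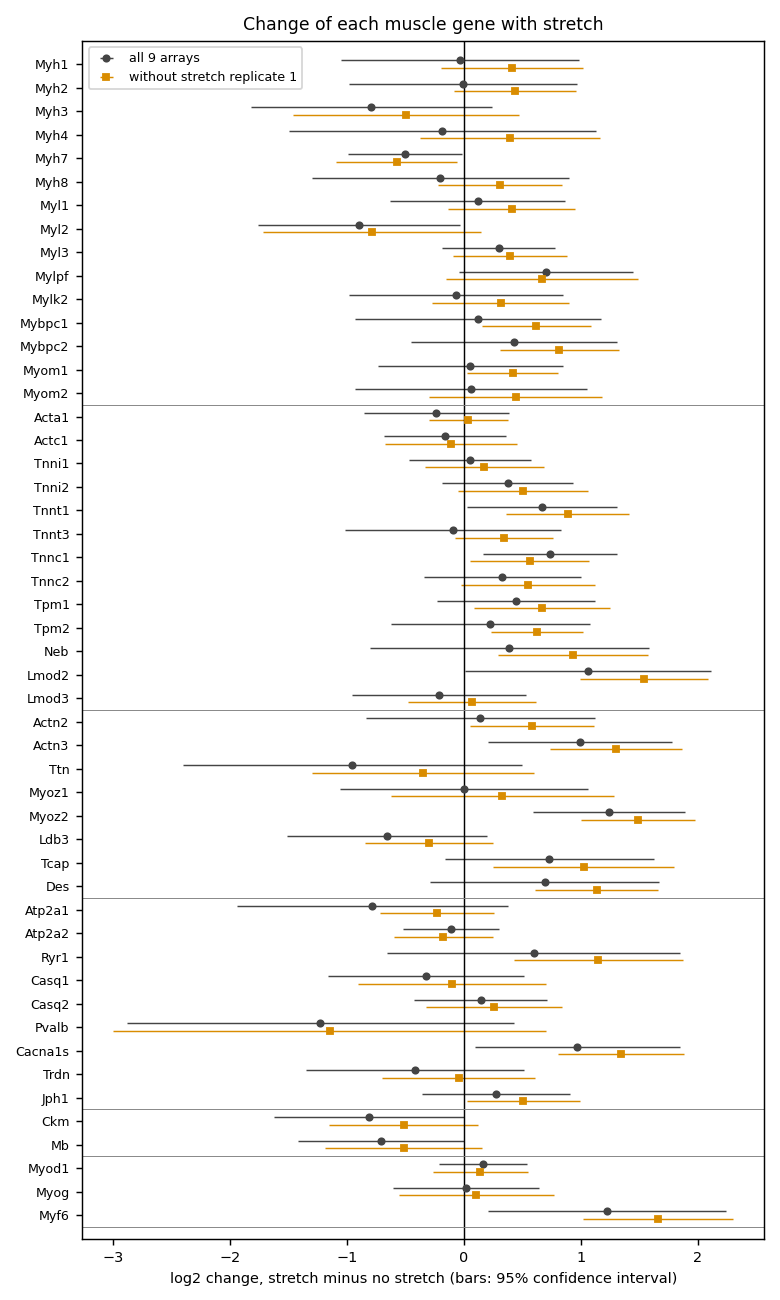
Log2 change, stretch minus no stretch, of each of the 50 genes with its 95% confidence interval from limma, from all 9 arrays (dark circles) and without stretch replicate 1 (orange squares); horizontal lines divide the role groups. Most squares lie to the right of the circles, the median moving from 0.06 to 0.40; Myoz2 is at 1.25 and 1.49.

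The genes of calcium release and uptake went both ways, with 4 of 9 positive, 5 negative and 0 past the test. Cacna1s, the voltage sensor of the T-tubule, was at 8.37, 10.24, 10.61, 9.80 and 10.39 with stretch and at 8.99, 8.94, 8.36 and 9.35 without. Stretch replicate 1 was at the bottom of the non-stretched range and the other stretched arrays were above it. The change was 0.97 with a standard error of 0.40 (adjusted p = 0.33), and 1.35 (adjusted p = 0.052) without that array. Its partner Ryr1, the release channel of the sarcoplasmic reticulum, had a change of 0.60, and Jph1, which holds the membranes of T-tubule and reticulum together, of 0.27. Trdn, triadin, which couples the release channel to calsequestrin, had a change of -0.42.

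The fast calcium pump Atp2a1 was at 13.51, 15.93, 16.22, 16.50 and 16.47 with stretch and at 16.47, 16.98, 16.07 and 16.51 without. Its change was -0.78 (-1.94 to 0.37), and -0.23 without stretch replicate 1. Atp2a2, the pump of slow and cardiac muscle and of many other cells, spanned 14.81 to 15.57 over all arrays, with a change of -0.11 (-0.52 to 0.30). The calcium stores Casq1 (fast) and Casq2 (slow and cardiac) had changes of -0.32 and 0.15. Pvalb, parvalbumin, the soluble calcium buffer of the fastest fibres, had the most negative change of the 50 genes and the widest interval. It was at 8.82, 7.97, 11.97, 7.30 and 9.60 with stretch and at 9.69, 11.25, 10.20 and 10.30 without, a change of -1.23 (-2.88 to 0.43; adjusted p = 0.53). Stretch replicate 3 was its highest array of all 9, and the other stretched arrays were all under no-stretch replicate 1.

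Ckm, the creatine kinase that buffers ATP, was at 10.85, 12.13, 13.17, 11.81 and 12.27 with stretch and at 12.52, 13.29, 12.90 and 12.74 without. Mb, the oxygen store myoglobin, was at 12.26, 13.20, 13.86, 12.63 and 13.27 with stretch and at 13.21, 14.26, 14.10 and 13.45 without. For Ckm only stretch replicate 3 reached the non-stretched range, and for Mb stretch replicates 3 and 5 did. The changes were -0.81 for Ckm and -0.71 for Mb, with an adjusted p of 0.385 for each, and -0.51 and -0.52 without stretch replicate 1.

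The myogenic regulators differed among themselves. Myf6 (MRF4), the member of the MyoD family expressed in mature fibres, was at 6.03, 7.91, 7.95, 9.09 and 7.87 with stretch and at 6.60, 6.44, 6.15 and 6.97 without. Stretch replicate 1 was the lowest of all 9 and the other 4 were the highest. The change was 1.23 with a standard error of 0.47 (2.34-fold; adjusted p = 0.29), and 1.66 (3.17-fold; adjusted p = 0.046) without stretch replicate 1. Myog, the factor of myoblast differentiation, was at 5.08, 5.09, 5.16, 6.26 and 5.58 with stretch and at 5.59, 5.69, 4.72 and 5.67 without, a change of 0.02 (-0.61 to 0.64). Myod1, the factor of lineage commitment, lay at percentile 13.8 of all genes, and its change was 0.16 (-0.21 to 0.54).

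Sorted by fibre type, the median change was -0.002 for 14 fast isoforms, 0.13 for 10 slow ones and -0.20 for 3 developmental ones, with 7, 7 and 0 of them positive and 0 past the test. Without stretch replicate 1 these medians were 0.41, 0.33 and -0.11. On average the fast genes stood at -1.23, 0.05, 0.96, -0.12 and 0.44 on the 5 stretched arrays, relative to non-stretched skin. On the 4 non-stretched arrays they stood at -0.33, 0.38, -0.15 and 0.10. The mean of the slow genes was -0.27, 0.23, 0.34, 0.25 and 0.32 with stretch and -0.15, 0.04, -0.12 and 0.24 without. In stretch replicate 1 the fast mean was thus lower than the slow mean, and the slow class holds genes such as Atp2a2 that other cells also express. The classes also differ in signal, with a median percentile of 98.3 for fast and 64.7 for slow genes. That array was the lowest of all 9 for 10 of the 14 fast and 2 of the 10 slow genes. The slow gene Mybpc1 stood at -1.87 there, and the fast genes Mylpf and Tnni2 at 0.84 and -0.13. A difference between fibre types was not tested. The developmental mean was -1.53, 0.12, -0.10, -0.20 and -0.21 with stretch and 0.02, 0.68, -0.73 and 0.03 without.

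**Figure D4:**
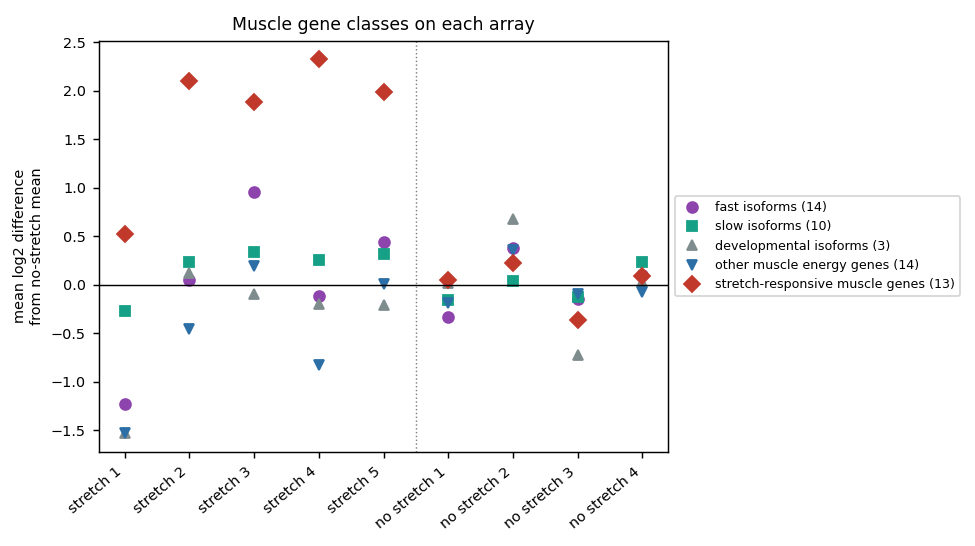
Mean log2 difference from the no-stretch mean (vertical axis) on each array (horizontal axis) for fast, slow and developmental isoforms and for 2 further muscle lists; the number of genes is in the legend. The stretch-responsive list stands at 0.52 in stretch replicate 1 and between 1.89 and 2.33 in the other stretched arrays, above its non-stretched values of -0.37 to 0.23, while the isoform classes overlap between groups.

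To describe the 50 genes relative to each other, the median over them was subtracted on each array. This step was chosen after the data were seen and is given with no test. Whether that median measures the amount of muscle in a sample was not tested. On that scale Myoz2, Lmod2, Actn3, Cacna1s and Myf6 were higher on all 5 stretched arrays than on all 4 non-stretched ones. Atp2a1 was lower on all 5. Relative to the other muscle genes Myoz2 was at 1.51, 1.39, 1.24, 0.73 and 1.10 with stretch, stretch replicate 1 now being the highest, and at 0.09, 0.12, -0.12 and -0.07 without. The median subtracted on stretch replicate 1 was -1.25, which raises every gene there, also those not low on it, such as Tnnc1 (2.67) and Mylpf (2.09). The top rank of that array for Myoz2 comes from this offset. The 5 higher genes separated the groups on all arrays only after the subtraction. Before it, stretch replicate 1 overlapped or lay under the non-stretched arrays for each of them. Relative to the no-stretch mean it stood at -0.86 (Lmod2), -0.25 (Actn3), -0.54 (Cacna1s), -0.51 (Myf6) and 0.26 (Myoz2). Myf6 was at 0.73, 1.16, 0.84, 2.28 and 0.86 with stretch and at 0.20, -0.33, -0.15 and 0.29 without. Atp2a1 was at -1.75, -0.79, -0.85, -0.27 and -0.51 with stretch and at 0.11, 0.24, -0.19 and -0.14 without. These 6 are 12% of the 50, against 0.738% of all genes on the same scale (0.385% higher and 0.354% lower), but the subtraction adds the spread of muscle signal to genes of other tissues, so this share is no fair background.

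Further muscle genes were read from lists that hold none of the 50. Of 13 stretch-responsive muscle genes all 13 were positive and 5 passed the test: Ankrd2, Csrp3, Mybph, Sln and Smpx, with limma adjusted p between 0.021 and 0.038. Ankrd2, a muscle ankyrin-repeat protein, was at 11.12, 13.66, 12.89, 13.92 and 13.03 with stretch and at 9.65, 9.28, 9.15 and 9.77 without (11.0-fold). It was thus above the non-stretched arrays even in stretch replicate 1, where most of the 50 genes were low. For Ankrd2, Csrp3, Mybph and Smpx that array was the lowest stretched one. For Sln it was the highest of all 9. Sln was at 13.45, 11.71, 10.86, 12.30 and 11.96 with stretch and at 8.86, 9.79, 9.09 and 9.52 without (6.69-fold). Its Pearson r with the mean of the 50 genes was -0.24. Without no-stretch replicate 3 none of the 5 passed (adjusted p 0.068 to 0.13), and none did when replicate 2 or 5 of the stretched or replicate 1 or 2 of the non-stretched group was dropped. This list was known from earlier results of these data and is not independent evidence. Its median change was 1.35, against 0.06 over the 50 sarcomere and calcium genes.

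The other muscle lists held no called gene with all arrays. Of 18 other structural genes 16 were positive (median 0.39), led by Pdlim3, a PDZ-LIM protein of the Z-disc, at 1.94 (adjusted p = 0.13, and 0.0016 without stretch replicate 1), and the lowest was the thin filament cap Tmod1 at -0.27, which was 0.14 without stretch replicate 1. Of 13 other genes of excitation and calcium handling 9 were positive (median 0.10), from Hrc, a calcium-binding protein of the reticulum, at -0.85 to the channel subunit Cacng1 at 1.33. Of 14 muscle energy genes 12 were negative (median -0.66), from Ckmt2, the mitochondrial creatine kinase, at -1.81 to the AMP deaminase Ampd1 at 1.24. Without stretch replicate 1, 9 of these 14 were negative and 5 positive (median -0.30). Satellite cell and regeneration genes (10, median 0.02) ran from the fusion protein Mymk at -0.50 to Myf5 at 0.52. Denervation and atrophy genes (11, median -0.03) ran from the ubiquitin ligase Fbxo32 at -0.62 to the acetylcholine receptor subunit Chrna1 at 0.87. Adipocyte markers, from the layer next to this muscle, were negative for 8 of 10 genes (median -0.71), their mean ranging from -1.23 to -0.27 with stretch and from -0.29 to 0.27 without. None of them passed with all arrays, where the smallest limma adjusted p was 0.053 (Plin1, change -1.51). Without stretch replicate 1 Plin1 passed (change -1.62, adjusted p = 0.046), in a fit that called 0.195% of all genes lower. It did not pass with no-stretch replicate 3 left out as well (adjusted p = 0.12). The part of the adipocyte genes in the results above was not tested.

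The genes outside all lists whose values most resembled the mean of the 50 genes over 9 arrays were Sytl3, Usp13, Tmem94, Txndc17, Ptges, Igsf11, Sys1, Lrrc39, 3425401B19Rik and Slc25a16. Their Pearson r ran from 0.93 to 0.97 and, over the 8 arrays other than stretch replicate 1, from 0.73 to 0.92. This is a ranking of 19505 genes over few arrays of 2 groups, given as a description, and the lowest r at its other end was as large in size (-0.97, Gas2).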

How the data were processed

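Total RNA of mouse skin was labelled as biotinylated cRNA and hybridised to Affymetrix arrays, per the labels' protocols. The deposited log2 values (22206 features, 9 arrays) were made with RMA and Transcriptome Analysis Console, per the submitters' processing notes; no source used here gives a genome build or filters. Gene symbols came from the platform annotation: 19572 features had 1 symbol, 0 had several and 2634 none. The feature of highest mean stood for each of 19505 genes; each of the 50 genes had a single feature.

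Differences were fitted over all genes with lmFit and eBayes of limma 3.58.1 (R 4.3.3), two-sided, no covariate, adjusted by Benjamini-Hochberg, and tested on simulated data. The number of arrays limits precision: the median standard error was 0.21 over all genes and 0.39 over the 50. The 50 genes, the lists and the tests were chosen with earlier results of these data known. Named with values were the myosin heavy chains, the extremes of each role group, called genes, regulators and list extremes, and other members were added with their values known.

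Alternatives were quantile normalization, median centring, a filter on dim genes, averaged features, all features, other variance models, array weights, the replicate block and omission of arrays. Subtraction of the median over the 50 genes was added after seeing the data. Array medians lay between 5.96 and 6.06.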

Additional observations from a re-analysis of the deposited data

Results flagged for a closer look

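Within each group, the highest and lowest array of each of the 50 genes were compared with the rest by Dixon's criterion, which flags a value whose gap to its nearest neighbour takes up most of the group's range. Chance flags about 1 in 20 groups, and 13 of 100 groups were flagged. In 11 of them the value standing apart was the low value of stretch replicate 1. These were Myh8 at log2 15.74, Mybpc1 at 14.03, Mybpc2 at 7.67, Myom1 at 9.10, Acta1 at 17.02, Tnnt3 at 14.08, Tpm2 at 15.41, Actn3 at 10.39, Des at 13.45, Atp2a1 at 13.51 and Ryr1 at 8.76. The genes are not independent of each other, since all were read from the same array. The other 2 were low values without stretch: Tnni2 at 13.46 in replicate 1 and Myog at 4.72 in replicate 3.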

How the results depend on the processing

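Over all genes, 48 passed with all arrays, 75 after quantile normalization, 89 with dim genes left out, 157 with array weights, 15 without stretch replicate 1 and no-stretch replicate 3, and between 2 and 195 with 1 array left out. Among the 50 genes 0 passed; 1 did with array weights and between 0 and 3 with 1 array left out. In the other muscle lists 5 passed; 11 did with array weights and between 0 and 14 with 1 array left out. Deviations of same-numbered samples correlated at -0.06 to 0.34, and 2 of 8 samples correlated best with their own number. With so few samples this cannot settle whether the replicate numbers pair the samples. With the replicate block 221 genes passed, 0 of the 50 and 9 in the other muscle lists. Stretch replicate 5 has no same-numbered partner, so the block in effect leaves it out of the change. Omission of that array without the block gave 13 calls over all genes.

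The sign of the change was the same under all alternatives run for 32 of the 50 genes. With 1 array left out, changes ran from -0.24 to 0.41 for Myh1, -0.22 to 0.44 for Myh2, -0.43 to 0.40 for Myh4, -0.41 to 0.31 for Myh8, -0.065 to 0.41 for Myl1, -0.29 to 0.32 for Mylk2, -0.11 to 0.62 for Mybpc1, -0.11 to 0.42 for Myom1, -0.20 to 0.44 for Myom2, -0.34 to 0.039 for Acta1, -0.088 to 0.25 for Tnni1, -0.25 to 0.34 for Tnnt3, -0.41 to 0.073 for Lmod3, -0.11 to 0.58 for Actn2, -0.43 to 0.33 for Myoz1, -0.030 to 0.32 for Casq2, -0.21 to 0.11 for Myog and -0.51 to 0.14 for Tmod1. Without stretch replicate 1 and no-stretch replicate 3 the sign turned for Myh1 (0.22), Myh2 (0.38), Myh4 (0.22), Myh8 (0.16), Mylk2 (0.33), Acta1 (0.017), Tnnt3 (0.37), Lmod3 (0.14), Casq1 (0.039) and Myog (-0.12). With array weights it turned for Myh1 (0.071), Myh2 (0.18), Mylk2 (0.086), Tnnt3 (0.089) and Myog (-0.044). With the block it turned for Myl1 (-0.0051), Mybpc1 (-0.11), Myom1 (-0.11), Myom2 (-0.078), Myoz1 (-0.048) and Myog (-0.019). Quantile normalization turned Myom1 (-0.028), Myom2 (-0.023) and Myoz1 (-0.085), median centring Myh2 (0.025), and subtraction of the median of the 50 genes Myom1 (-0.0035), Tnni1 (-0.0048), Myoz1 (-0.053) and Myog (-0.038). The causes were not tested.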
